A study of Drosophila melanogaster with 8 samples.

Results

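Midguts of late larvae (96 hours after egg laying) that carried a genomic duplication of Pngl over a null background were compared with midguts of Pngl heterozygotes. The comparison is Pngl-/-; Pngl Dp/+ (here Pngl Dp/+) against Pngl+/-, with 2 RNA libraries of each, 4 of the 8 libraries of the series. They were chosen by genotype label, and all genes of the count table entered. Pngl Dp/+ larvae are homozygous for the null allele Pngl-ex14 in a y w background and carry a wild-type Pngl transgene, a PBac insertion of clone Ch322-3O13, labelled as VK27. The strain list of the study gives another insertion site, so the rescue line sequenced is uncertain. Pngl+/- larvae carry 1 copy of Pngl-ex14 over a CyO balancer chromosome with a Kr>GFP marker, in the same y w background. Both genotypes are thus labelled with 1 functional copy of Pngl, and both carry Pngl-ex14. They differ in the place of the functional copy, in the number of Pngl-ex14 copies and in the balancer. The remaining libraries are 2 of y w and 2 of Pngl-/-. Each was made from pooled midguts of males and females.

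Pngl encodes the fly N-glycanase, a cytosolic enzyme that takes N-glycans off misfolded glycoproteins during degradation from the endoplasmic reticulum. The larval midgut is a tube of large enterocytes, which secrete digestive enzymes and take up nutrients, with enteroendocrine cells, adult midgut progenitors and a coat of visceral muscle. Its lumen is lined by the peritrophic matrix, a sheet of chitin and glycoproteins made in the proventriculus, and its epithelium makes antimicrobial peptides through the Imd pathway. Enterocyte markers were present in both genotypes, from pdm2 (at most 2.84 CPM) to Jon65Aiii (12432 and 11855 CPM in Pngl Dp/+). Of 7 tested, Amy-p rose and mag fell. The summed level of all 8 was 22485 and 21359 CPM in Pngl Dp/+ midguts, against 21013 and 21500 CPM in Pngl+/- midguts. Most of each sum came from the proteases betaTry and Jon65Aiii. CPM give a gene's count relative to the total of its library, scaled between libraries by TMM factors.

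Totals were 20414011 and 28382919 counts in the Pngl Dp/+ libraries, against 23812817 and 20989392 counts in the Pngl+/- libraries. Libraries of 1 genotype lay close together. On log2 CPM over the 7665 genes tested, the distance was 17.1 within Pngl Dp/+ and 19.6 within Pngl+/-, while libraries of different genotypes lay 58.9 to 60.3 apart. Libraries of 1 genotype were still not copies of each other, since their chi-square statistic divided by the number of genes was 14.3 in Pngl Dp/+ and 7.16 in Pngl+/-, where sampling alone gives about 1. The study describes them as biological replicates, and with 2 per genotype each p-value rests on a spread estimated over all 8 libraries.

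Of the 7665 genes tested, 1677 were called by edgeR's quasi-likelihood test. A call required that the levels differed 1.5-fold or more and that the p adjusted by Benjamini and Hochberg did not exceed 0.05. That is 21.9% of the genes, with 1071 higher in Pngl Dp/+ (14%) and 606 lower (7.91%). The libraries of the genotypes did not overlap in 80.8% of all genes tested. A further 3229 genes had an adjusted p of at most 0.05 at a smaller fold change. The median log2 fold change was 0.00 and the median absolute log2 fold change 0.28. Changes were at least 2-fold in 416 genes that rose and 237 that fell, and at least 8-fold in 39 and 24. The split by direction depended on the scaling. Higher genes were 63.9% of those called with TMM factors on the genes tested, 52.3% with TMM factors on all genes (886 higher, 808 lower) and 88.6% with library size alone (2201 higher, 284 lower). Library size alone moved the median log2 fold change of all genes to 0.32, and the changes below are given relative to the TMM scale.

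**Figure D1:**
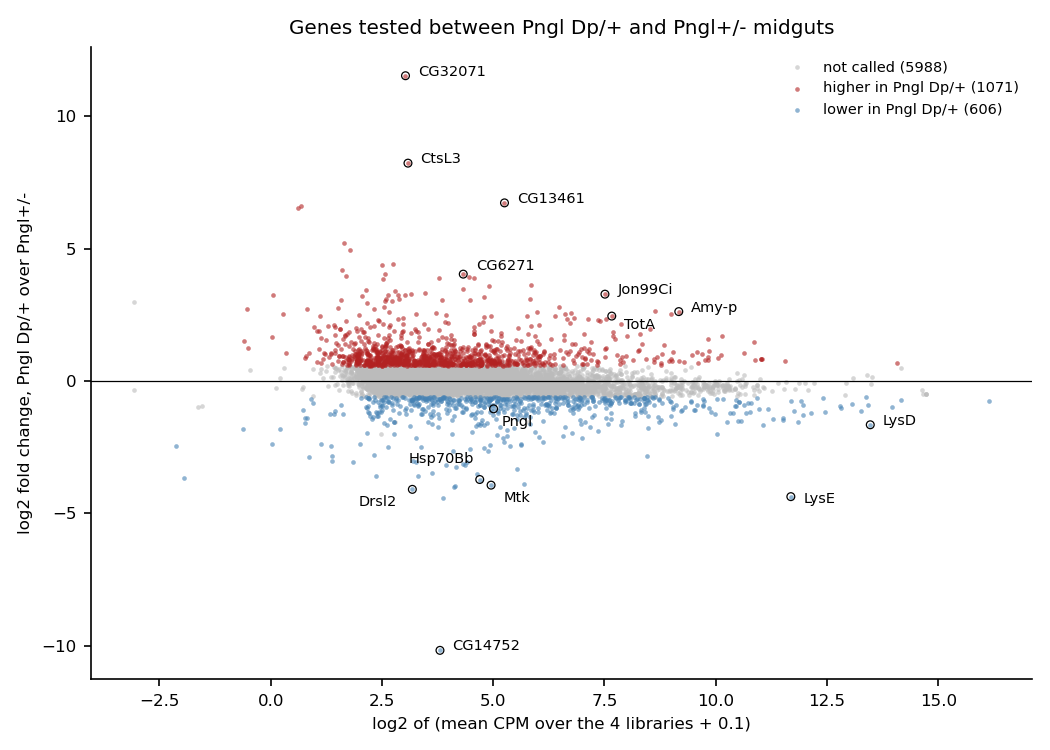
Log2 fold change of Pngl Dp/+ over Pngl+/- (vertical) against the mean level over the 4 libraries (horizontal, log2 of CPM plus 0.1) for the 7665 genes tested, with the 1071 higher genes in red, the 606 lower genes in blue and ringed genes named in the text. LysE and LysD stand low at high levels, and the fitted values of CG32071, CtsL3 and CG14752 rest on at most 2 counts in 1 genotype.

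Pngl itself (FBgn0033050, dm6 chromosome 2R, 6017739 to 6020695) was lower in Pngl Dp/+. Its level was 21.1 and 20.7 CPM in Pngl Dp/+, against 45 and 41.5 CPM in Pngl+/-. The log2 fold change was -1.05, SE 0.06, adjusted p = 9.96e-10, and the genotypes did not overlap, as in 80.8% of all genes tested. In the other libraries Pngl stood at 33.6 and 31.4 CPM in y w and at 58.3 and 56.7 CPM in the libraries labelled Pngl-/-. Each value is 1 count per gene, in which reads of Pngl-ex14 and wild-type copies were not separated, so the level does not check the number of functional copies. Strica, a caspase gene on the opposite strand, shares 385 exonic bases with Pngl, and reads there could not be told apart since the use of strand in counting is not stated. Strica had 21.1 and 21.5 CPM in Pngl Dp/+, against 20.4 and 20.6 CPM in Pngl+/- (log2 fold change 0.06, SE 0.06, adjusted p = 0.441), and this difference was smaller than the threshold for a call.

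Genes beside Pngl may share the duplicated clone, whose ends were not among the data analysed here. Of the 6 other genes within 25 kb of Pngl, 5 were tested and 0 were called, against 21.9% of all genes. Under an unadjusted p of 0.05 stood 2 of the 5, and DESeq2 also called 0. Act42A, a cytoplasmic actin gene, had 340.4 and 329 CPM in Pngl Dp/+, against 382 and 386 CPM in Pngl+/- (log2 fold change -0.20, SE 0.04, adjusted p = 0.000156). The difference was small, and the genotypes did not overlap, as in 80.8% of all genes tested. SCAP, the escort protein of the lipid regulator SREBP, had 24 and 24.7 CPM in Pngl Dp/+, against 18.9 and 23.2 CPM in Pngl+/- (log2 fold change 0.21, SE 0.08, adjusted p = 0.0281). Src42A, a Src-family kinase, and Tbce, a tubulin chaperone, had log2 fold changes of 0.06 and 0.03, with adjusted p of 0.399 and 0.749. CG14591 was under the filter on low counts, with 1.41 and 1.37 CPM in Pngl Dp/+ and 1.42 and 1.72 CPM in Pngl+/-. Within 1 Mb of Pngl, 13 of 90 tested genes were higher and 0 lower. That is 14.4% higher and 0 lower, against 14% higher and 7.91% lower among all genes tested.

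**Figure D2:**
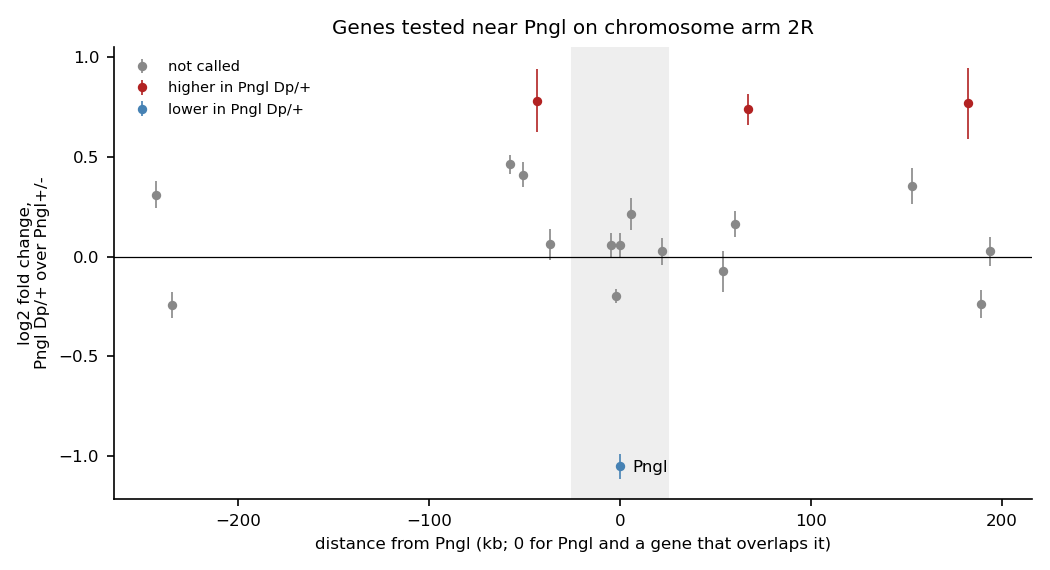
Log2 fold change of Pngl Dp/+ over Pngl+/- with its standard error (bars) for tested genes on chromosome arm 2R, by distance from Pngl in kb. The grey band marks 25 kb on either side, in which Pngl at -1.05 is the gene called.

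Marker genes of the strains were also read. The eye colour gene w, which marks many fly transgenes, had 30 and 42 counts in Pngl Dp/+ libraries, against 71 and 59 counts in Pngl+/- libraries. It had 1 and 7 counts in y w and 1 and 0 in Pngl-/-, and was under the filter of 5 CPM. With a filter of 1 CPM w was tested and called lower in Pngl Dp/+. The body colour gene y was also under the filter, with 18 and 11 counts in Pngl Dp/+ and 13 and 14 counts in Pngl+/-. Kr, a gap gene transcription factor, was looked at after its values were seen, because the balancer label names Kr>GFP. Kr had 10.4 and 10.2 CPM in Pngl Dp/+ midguts, against 22.2 and 21.1 CPM in Pngl+/- midguts (log2 fold change -1.08, SE 0.08, adjusted p = 7.99e-09). The y w libraries (12.1 and 11.5 CPM) and the Pngl-/- libraries (11.0 and 9.89 CPM) stood near the level of Pngl Dp/+. Whether reads of the balancer's transgene fell on Kr was not tested.

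The largest changes were on-off differences. CG32071 had 865 counts over the Pngl Dp/+ libraries and 0 over the Pngl+/- libraries. Its level of 16.8 and 15.4 CPM in Pngl Dp/+ was at least 107-fold higher than a floor of 3 counts per library in Pngl+/-. CtsL3, a cathepsin L-like protease gene, had 906 counts in Pngl Dp/+ and 2 in Pngl+/-, a ratio of 334 per library size (exact 95% interval 92.1 to 2761, counting error only). In the other direction, CG14752 had 1 count in Pngl Dp/+ and 1102 in Pngl+/-, so that Pngl+/- was 1495 times Pngl Dp/+ (interval 268 to 59117). CG32071 and CG14752 each stood high in 1 genotype of the series. CG32071 was at 0.21 and 0.11 CPM in y w and 0 and 0.20 CPM in Pngl-/-, and CG14752 at 0.29 and 0.18 CPM in y w and 0.16 and 0.15 CPM in Pngl-/-.

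Among the other genes with the largest increases, CG13461 had 74.3 and 76.4 CPM in Pngl Dp/+, against 0.57 and 0.86 CPM in Pngl+/-, and the log2 fold change was 6.73, SE 0.11, adjusted p = 9.06e-16. GILT3, a thiol reductase gene of the GILT family, had 13.3 and 12.1 CPM in Pngl Dp/+, against 0.52 and 0.64 CPM in Pngl+/-. Sid, a stress-induced DNase, had 10.8 and 11.2 CPM in Pngl Dp/+, against 0.71 and 0.59 CPM in Pngl+/-, and NimC2, of the Nimrod family of phagocytosis receptors, had 39.2 and 43.4 CPM in Pngl Dp/+, against 3.21 and 2.15 CPM in Pngl+/-. Their log2 fold changes were 6.73, 4.44, 4.06 and 3.93, all higher in Pngl Dp/+. The lipase gene CG6271 is described with its family, and CG13135, CG14237 and lcs completed the 10 largest, at log2 fold changes of 4.39, 3.90 and 3.88. The 10 largest decreases also held CG4325, with 1.59 and 1.05 CPM in Pngl Dp/+, against 27.8 and 27.6 CPM in Pngl+/-. Yp3, a yolk protein gene, had 6.94 and 6.18 CPM in Pngl Dp/+, against 91.2 and 102 CPM in Pngl+/- (log2 fold change -3.88, SE 0.08, adjusted p = 9.11e-15). AstCC, an allatostatin neuropeptide gene, had 0.66 and 0.83 CPM in Pngl Dp/+, against 8.93 and 9.66 CPM in Pngl+/- (log2 fold change -3.60, SE 0.18, adjusted p = 1.12e-10). The rest of those 10 were LysE, Drsl2, Mtk and 3 copies of Hsp70, described with their families.

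Inducible antimicrobial peptides, the secreted effectors of humoral immunity, were lower in Pngl Dp/+. Of 23 genes in the table, 18 were tested, of which 13 fell and 0 rose, against 7.91% lower and 14% higher among all genes tested. Their median log2 fold change was -2.39, against 0.00 over all genes, and it was between -2.47 and -2.07 under the other scalings. With library size alone 13 fell and 2 rose. Summed over the 23 genes, the level was 109 and 111 CPM in Pngl Dp/+ midguts, against 472 and 461 CPM in Pngl+/- midguts. The y w libraries held 425 and 412 CPM and the Pngl-/- libraries 645 and 646 CPM. Mtk, an antifungal metchnikowin, had 3.09 and 4.33 CPM in Pngl Dp/+, against 61.8 and 54.2 CPM in Pngl+/- (log2 fold change -3.93, SE 0.11, adjusted p = 9.89e-14). Dro, the proline-rich peptide drosocin, had 1.64 and 1.37 CPM in Pngl Dp/+, against 16 and 20.3 CPM in Pngl+/- (log2 fold change -3.60, SE 0.15, adjusted p = 1.68e-11). Drsl2, of the drosomycin family, had 0.62 and 1.27 CPM in Pngl Dp/+, against 19.2 and 14.9 CPM in Pngl+/- (log2 fold change -4.09, SE 0.21, adjusted p = 1.73e-10). In each of the 3 both Pngl Dp/+ libraries stood far under both Pngl+/- libraries. Attacins (AttA and AttB) and cecropins (CecA1 and CecA2) are near-identical pairs whose reads may have been split. The 5 members not called, named after their values were seen, were GNBP-like3, Mtkl, CecC, Drs and Def, with log2 fold changes between -0.95 and 0.58.

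The effectors of the Toll pathway were low in both genotypes. Of 14 Bomanin and Daisho genes, 4 passed the filter, of which 3 fell and 0 rose. With a filter of 1 CPM all 14 were tested, of which 5 fell and 2 rose. The 2, named after their values were seen, were BomS4, with 34 and 50 counts in Pngl Dp/+ and 7 and 5 counts in Pngl+/-, and BomT3, with 27 and 51 counts in Pngl Dp/+ and 10 and 17 counts in Pngl+/-. BomS3 had 0.57 and 0.51 CPM in Pngl Dp/+, against 4.49 and 4.4 CPM in Pngl+/-, with a log2 fold change of -3.04, SE 0.20, adjusted p = 2.95e-09. Dso1 and BomS1 were at most 0.61 CPM in Pngl Dp/+ and at most 1.93 CPM in Pngl+/-. The 4 genes passed the filter through the libraries labelled Pngl-/-, in which BomS3 had 28 and 28.7 CPM. Upstream of the effectors, 1 of 14 Imd pathway genes was called higher and 2 of 13 Toll pathway genes lower, against 21.9% of all genes tested called in either direction. With library size alone 4 Toll pathway genes were called higher and 1 lower. Rel, the NF-kappaB factor of the Imd pathway, was higher, at 72.2 and 71 CPM in Pngl Dp/+, against 43.9 and 46.5 CPM in Pngl+/- (log2 fold change 0.66, SE 0.05, adjusted p = 5.50e-09). With TMM factors on all genes, Rel's log2 fold change of 0.58 fell just short of a call. grass, a serine protease upstream of Toll, had 11.7 and 11.4 CPM in Pngl Dp/+, against 36.4 and 38.7 CPM in Pngl+/- (log2 fold change -1.70, SE 0.06, adjusted p = 4.16e-12). SPE, the protease that activates the Toll ligand, had a log2 fold change of -0.63, which was -0.47 without the second Pngl+/- library and then not called. Among 13 recognition genes (PGRPs and GNBPs) 3 rose and 2 fell. PGRP-SC1a and PGRP-SC1b, near-identical amidases that cut peptidoglycan, were higher, with 1120.1 and 1102 CPM in Pngl Dp/+, against 534 and 573 CPM in Pngl+/- for PGRP-SC1a and 735 and 699 CPM in Pngl Dp/+, against 321 and 356 CPM in Pngl+/- for PGRP-SC1b. PGRP-SB1, another amidase, was lower, at 8.93 and 9.69 CPM in Pngl Dp/+, against 23.7 and 19.2 CPM in Pngl+/-.

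Lysozymes, which digest bacterial cell walls in the gut, changed in both directions. All 7 lysozyme genes were tested, of which 4 fell and 2 rose, against 7.91% lower and 14% higher among all genes tested. They took 1.68% and 1.5% of all counts in Pngl Dp/+ libraries, against 3.39% and 3.53% in Pngl+/- libraries. LysE had 316 and 293 CPM in Pngl Dp/+, against 6249.6 and 6321 CPM in Pngl+/- (log2 fold change -4.37, SE 0.05, adjusted p = 1.83e-17). The y w libraries were at 264 and 272 CPM, near Pngl Dp/+, and the Pngl-/- libraries at 3091 and 3112 CPM. LysD had 5741 and 5214 CPM in Pngl Dp/+, against 16677 and 17766 CPM in Pngl+/- (log2 fold change -1.65, SE 0.06, adjusted p = 1.44e-12). LysP had 3.45 and 3.35 CPM in Pngl Dp/+, against 33.3 and 31.5 CPM in Pngl+/- (log2 fold change -3.26, SE 0.09, adjusted p = 7.83e-14). LysX went the other way, with 247 and 217 CPM in Pngl Dp/+, against 44.8 and 47.4 CPM in Pngl+/- (log2 fold change 2.33, SE 0.06, adjusted p = 3.49e-14). LysB, LysD and LysE are near-identical copies, so the division of reads between them is uncertain.

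Digestive enzymes were divided by class. Of 31 serine protease genes tested, 9 fell and 2 rose, against 7.91% lower and 14% higher among all genes tested. With library size alone 7 fell and 4 rose. The direction of the summed Jonah proteases depended on the scale. They took 13.2% and 12.9% of raw counts in Pngl Dp/+, against 11.8% and 12.2% in Pngl+/-, while on the TMM scale they summed to 118957 and 116411 CPM in Pngl Dp/+, against 132719 and 137140 CPM in Pngl+/-. Of the 16 Jonah genes 6 fell and 2 rose, with a median log2 fold change of -0.34. Jon99Cii, the called gene with the highest level among those that rose, had 20976 and 21399.9 CPM in Pngl Dp/+, against 13010.5 and 13347 CPM in Pngl+/- (log2 fold change 0.69, SE 0.05, adjusted p = 7.03e-09), and Jon66Ci had 11059.8 and 10452 CPM in Pngl Dp/+, against 20503 and 21852 CPM in Pngl+/- (log2 fold change -0.98, SE 0.06, adjusted p = 5.44e-10). Jon99Ci showed the widest difference, with 317 and 344 CPM in Pngl Dp/+, against 33.6 and 34.3 CPM in Pngl+/- (log2 fold change 3.28, SE 0.05, adjusted p = 4.56e-16). Jon25Bi had 423 and 411 CPM in Pngl Dp/+, against 1625 and 1686 CPM in Pngl+/- (log2 fold change -1.99, SE 0.04, adjusted p = 1.10e-14). Of 11 trypsins tested 2 fell, and iotaTry had 46.7 and 45.7 CPM in Pngl Dp/+, against 107 and 108 CPM in Pngl+/- (log2 fold change -1.22, SE 0.05, adjusted p = 1.91e-11).

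Carbohydrate-digesting enzymes were called in both directions. All 3 amylase genes rose, and the summed amylase level was 1920 and 1848 CPM in Pngl Dp/+ midguts, against 302 and 330 CPM in Pngl+/- midguts. Amy-p had 1010.0 and 971 CPM in Pngl Dp/+, against 152 and 169 CPM in Pngl+/- (log2 fold change 2.62, SE 0.07, adjusted p = 7.57e-14), and Amy-d, its near-identical copy, had 888 and 854 CPM in Pngl Dp/+, against 146 and 157 CPM in Pngl+/-. Amyrel, a diverged amylase, had 21.5 and 23.2 CPM in Pngl Dp/+, against 4.02 and 3.38 CPM in Pngl+/- (log2 fold change 2.59, SE 0.09, adjusted p = 3.14e-12). Of 9 maltase genes of the Mal group tested, 6 fell and 2 rose, and their summed level was 596 and 590 CPM in Pngl Dp/+, against 1139 and 1157 CPM in Pngl+/-. Over the carbohydrate list of 19 tested genes, 5 rose and 10 fell, against 14% higher and 7.91% lower among all genes tested.

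Of 16 lipase and lipid droplet genes tested, 6 rose and 5 fell, against 14% higher and 7.91% lower among all genes tested. CG6271, a gut lipase gene, had 35.4 and 39.9 CPM in Pngl Dp/+, against 1.65 and 3.00 CPM in Pngl+/- (log2 fold change 4.04, SE 0.13, adjusted p = 6.28e-13). The Pngl-/- libraries were far above both, at 629.9 and 608 CPM. CG8093, a lipase gene of the acid lipase group, had 108 and 106 CPM in Pngl Dp/+, against 8.74 and 8.48 CPM in Pngl+/- (log2 fold change 3.63, SE 0.05, adjusted p = 1.06e-16), and Lip3, a lipase known from starved larvae, had 10.4 and 10.3 CPM in Pngl Dp/+, against 1.46 and 1.02 CPM in Pngl+/- (log2 fold change 3.04, SE 0.15, adjusted p = 9.07e-11). mag, the magro lipase and one of the enterocyte markers, was lower, at 951 and 970.4 CPM in Pngl Dp/+ midguts, against 1879 and 1807 CPM in Pngl+/- midguts. Among 10 Niemann-Pick C genes, which bind or move sterols, 2 rose and 2 fell (4 and 1 with library size alone). Npc2e had 104 and 109.9 CPM in Pngl Dp/+, against 24.5 and 24.1 CPM in Pngl+/- (log2 fold change 2.14, SE 0.05, adjusted p = 1.91e-14), while Npc2d had 103 and 102 CPM in Pngl Dp/+, against 267 and 271 CPM in Pngl+/- (log2 fold change -1.39, SE 0.04, adjusted p = 8.48e-14). Of 15 lipid synthesis and storage genes, 3 rose and 1 fell (4 fell with TMM factors on all genes). That is 26.7% called, near the 21.9% of all genes tested. The 3 that rose were NLaz, a lipocalin, and the lipid carriers Apoltp and apolpp, with log2 fold changes of 1.61, 1.24 and 0.81.

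**Figure D3:**
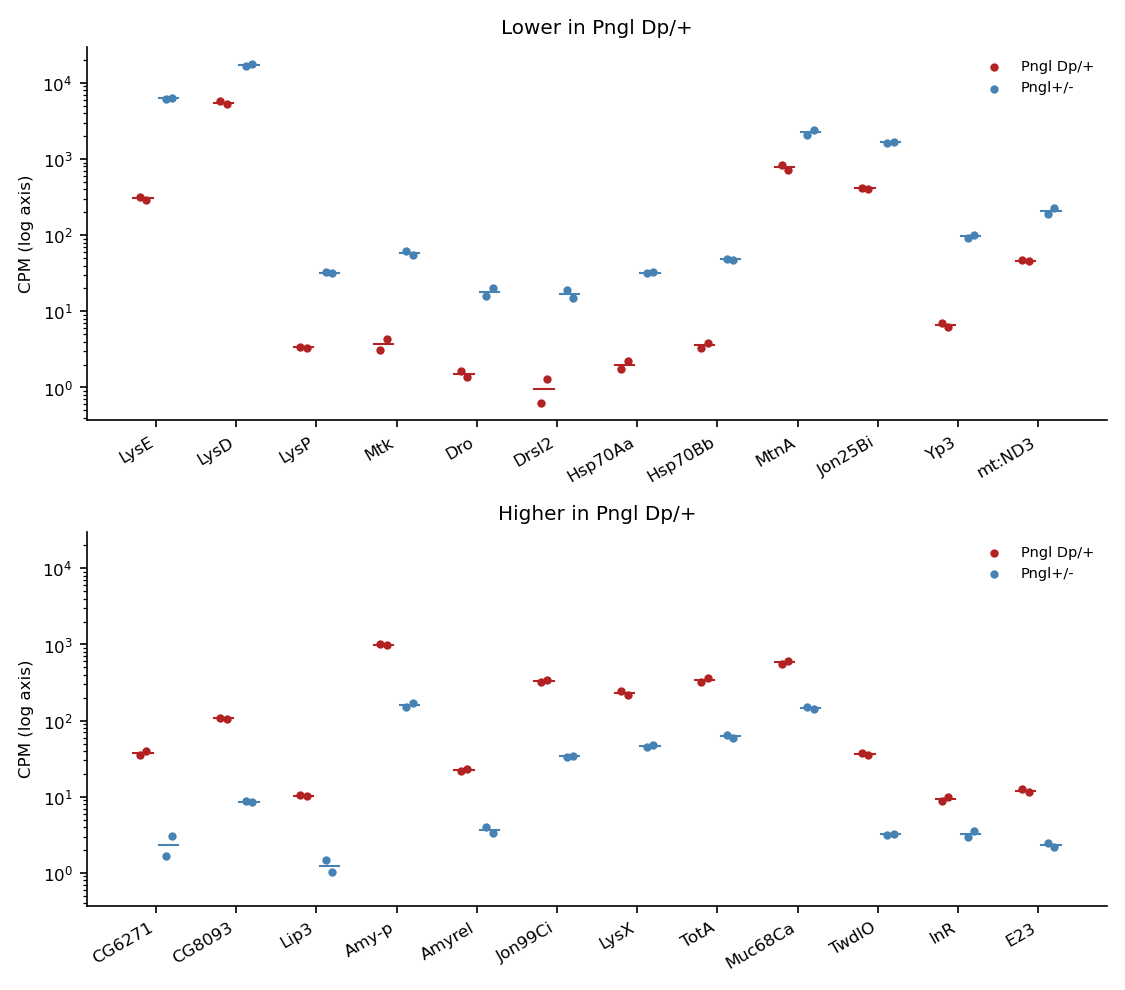
Level in CPM (vertical, log axis) of 24 named genes in the 2 Pngl Dp/+ libraries (red, left of each pair) and the 2 Pngl+/- libraries (blue, right), with a short line at each mean. The upper panel holds genes lower in Pngl Dp/+ and the lower panel genes higher in it. All were picked among called genes. In none do the genotypes overlap, as in 80.8% of all genes tested.

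Genes of the peritrophic matrix and of cuticle were called often, against 14% higher and 7.91% lower among all genes tested. Of 12 mucin and peritrophin genes tested, 6 rose and 3 fell, and 10 more were under the filter. Muc68Ca, a gut mucin, had 561 and 608 CPM in Pngl Dp/+, against 152 and 144 CPM in Pngl+/- (log2 fold change 1.99, SE 0.05, adjusted p = 1.01e-13), and Muc11A had 419 and 374 CPM in Pngl Dp/+, against 113 and 127 CPM in Pngl+/- (log2 fold change 1.72, SE 0.07, adjusted p = 6.71e-12). Peritrophin-15a, a small chitin-binding protein, had 1382 and 1299.9 CPM in Pngl Dp/+, against 3629 and 3628 CPM in Pngl+/- (log2 fold change -1.44, SE 0.04, adjusted p = 4.35e-13). Summed over all 22 genes the level was lower, at 7663 and 8233 CPM in Pngl Dp/+, against 12479 and 11423 CPM in Pngl+/-, while the median log2 fold change was 0.24. Cuticular proteins, which build the chitinous lining of ectodermal gut, trachea and skin, had 34 of 52 tested genes higher and 6 lower, with a median log2 fold change of 0.90. Another 81 of the 133 listed were under the filter. Their summed level was 15279 and 16455 CPM in Pngl Dp/+ midguts, against 8583 and 8032 CPM in Pngl+/- midguts. Most of that level came from Lcp genes, of which 11 of 13 tested rose. Lcp4 had 3557 and 3943 CPM in Pngl Dp/+, against 2341 and 2143 CPM in Pngl+/- (log2 fold change 0.74, SE 0.05, adjusted p = 7.54e-09), and Lcp65Ab1 and Lcp65Ab2, near-identical copies, both had a log2 fold change of 0.85.

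Among low-level cuticle genes TwdlO had 37.3 and 35.6 CPM in Pngl Dp/+, against 3.17 and 3.27 CPM in Pngl+/- (log2 fold change 3.5, SE 0.09, adjusted p = 7.83e-14), and TwdlX had 159 counts in Pngl Dp/+ and 1 in Pngl+/- (ratio 117, exact 95% interval 20.7 to 4657). TwdlX passed the filter through the y w libraries, at 8.19 and 8.97 CPM. Of the 8 obst genes (chitin-binding proteins) in the cuticular list, 3 rose and 4 fell, against 14% higher and 7.91% lower among all genes tested. Markers of ectodermal gut (proventriculus, foregut or hindgut) moved with this list. Of 5 tested 3 rose, with a summed level of 221 and 210 CPM in Pngl Dp/+, against 143 and 140 CPM in Pngl+/-, and obst-A belongs to both lists. Their part in the cuticle result was not tested. In pooled tissue, fewer cells of a type and less RNA per cell cannot be told apart.

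Muscle genes were higher in Pngl Dp/+. Of 13 visceral muscle markers, which encode sarcomere proteins, 12 rose, all but Act87E, against 14% higher among all genes tested. Their summed level was 8938 and 9011 CPM in Pngl Dp/+ midguts, against 5021 and 4923 CPM in Pngl+/- midguts, or 1.80-fold. Mhc, the muscle myosin heavy chain, had 602 and 586 CPM in Pngl Dp/+ midguts, against 291 and 298 CPM in Pngl+/- midguts. bt, a titin-like kinase, had 47.9 and 49.8 CPM in Pngl Dp/+ midguts, against 14 and 12.2 CPM in Pngl+/- midguts.

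Markers of other gut cells and of organs next to the gut were called in both directions. The summed level of 7 fat body markers was 34316 and 35628 CPM in Pngl Dp/+, against 53615 and 51322 CPM in Pngl+/-, and the members were divided. The 4 larval serum protein genes fell, Lsp1gamma at 13502 and 14285 CPM in Pngl Dp/+, against 23504 and 21759 CPM in Pngl+/-, while Fbp1, Fbp2 and apolpp rose. Fbp1, a receptor for larval serum proteins, had 2703 and 2733 CPM in Pngl Dp/+ midguts, against 969 and 984 CPM in Pngl+/- midguts. With library size alone the log2 fold change of Lsp1gamma was -0.38, short of a call. Fat body also makes antimicrobial peptides, and its part in the peptide result was not tested. Copper cell markers summed to 946 and 834 CPM in Pngl Dp/+, against 2182 and 2473 CPM in Pngl+/-, nearly all of it MtnA, a metallothionein. Vha100-4 and Ptx1 of that list were not called and lab was under the filter. Salivary gland markers summed to 8207 and 8233 CPM in Pngl Dp/+, against 7770 and 7603 CPM in Pngl+/-, and 3 of 9 rose while 1 fell. Malpighian tubule markers held 0 higher and 1 lower of 5 tested. That gene was Uro, a urate oxidase, at 26 and 25.5 CPM in Pngl Dp/+ midguts, against 96.6 and 98 CPM in Pngl+/- midguts. Irk3, NaPi-T, ZnT35C and salt of that list were not called. Of 8 haemocyte markers tested 3 rose and 1 fell, and of 11 enteroendocrine markers 1 rose and 2 fell. Beside these counts, 14% of all genes tested were higher and 7.91% lower.

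**Figure D4:**
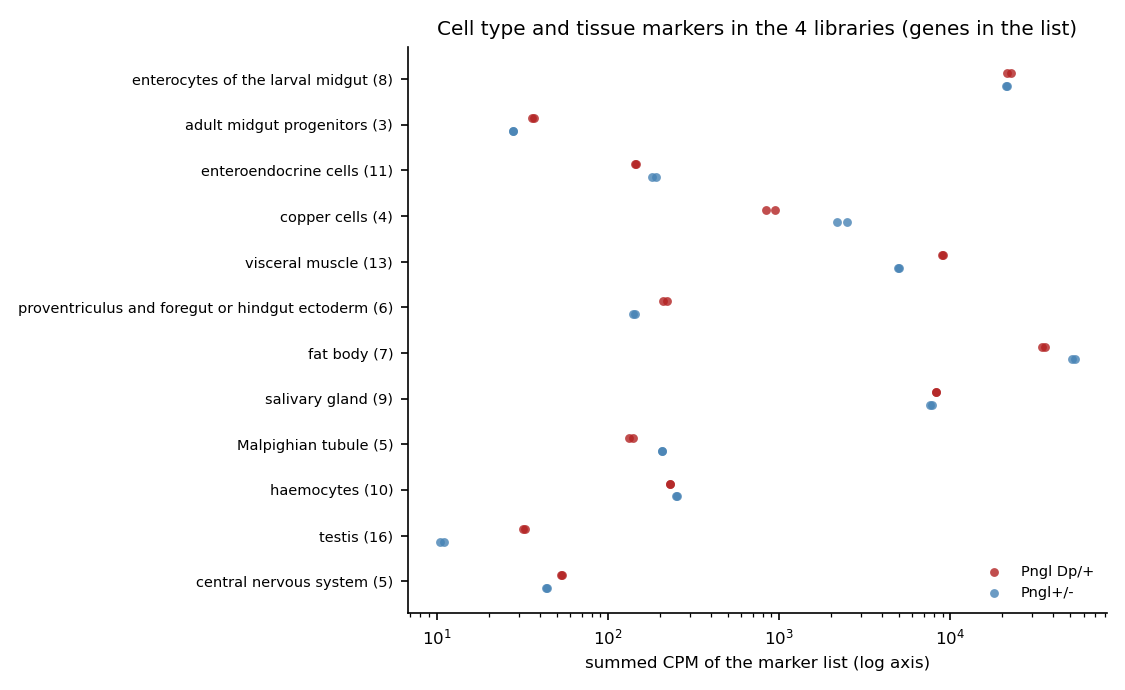
Summed CPM (horizontal, log axis) of each marker list in the 2 Pngl Dp/+ libraries (red, upper of each pair) and the 2 Pngl+/- libraries (blue, lower). Enterocyte sums, mostly from betaTry and Jon65Aiii, lie together. Muscle sums are higher in Pngl Dp/+ (8938 and 9011 CPM, against 5021 and 4923 CPM), and fat body and copper cell sums are lower.

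Stress genes were divided by family. The 6 Hsp70 copies, the classic heat-inducible chaperones, all fell, with log2 fold changes of -3.99 to -3.04. Summed over the copies the level was 12.3 and 14.9 CPM in Pngl Dp/+ midguts, against 168 and 171 CPM in Pngl+/- midguts. It was 12.1 and 14.5 CPM in y w and 47.7 and 45.1 CPM in Pngl-/-. Hsp70Aa had 1.77 and 2.23 CPM in Pngl Dp/+, against 31.8 and 32.9 CPM in Pngl+/- (log2 fold change -3.99, SE 0.11, adjusted p = 1.01e-13), and Hsp70Bb had 3.32 and 3.89 CPM in Pngl Dp/+, against 49.4 and 46.7 CPM in Pngl+/- (log2 fold change -3.72, SE 0.08, adjusted p = 1.90e-14). The copies are near-identical in sequence, so they are not independent measurements. Of the 13 other heat shock genes tested, 3 rose and 2 fell, against 14% higher and 7.91% lower among all genes tested. Their summed level was 3820 and 3779 CPM in Pngl Dp/+, against 3512 and 3568 CPM in Pngl+/-. The balancer with its marker transgene is present in Pngl+/- alone, so its effect and that of the genotype cannot be told apart.

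The metal and redox genes called on the TMM scale fell, except for 1 gene of iron transport. Among all genes tested 14% were higher and 7.91% lower. Of 10 metallothionein and copper genes tested, 5 fell and 0 rose (4 and 1 with library size alone). MtnA, which binds copper, had 847 and 727 CPM in Pngl Dp/+, against 2098 and 2391 CPM in Pngl+/- (log2 fold change -1.51, SE 0.07, adjusted p = 1.08e-10), and MtnB had 12.4 and 12.3 CPM in Pngl Dp/+, against 39 and 39.5 CPM in Pngl+/- (log2 fold change -1.67, SE 0.07, adjusted p = 2.38e-11). Fer1HCH, a ferritin heavy chain, had 1081 and 1083 CPM in Pngl Dp/+, against 1892 and 1864 CPM in Pngl+/- (log2 fold change -0.80, SE 0.04, adjusted p = 3.26e-11), while mfrn, a mitochondrial iron carrier, rose by 0.71 on the log2 scale. Of 11 antioxidant genes 3 fell and 0 rose (1 and 1 with library size alone), or 27.3% called, against 21.9% of all genes tested. They were led by Sod3, an extracellular superoxide dismutase, at 56.8 and 55.9 CPM in Pngl Dp/+, against 106 and 121 CPM in Pngl+/- (log2 fold change -1.01, SE 0.05, adjusted p = 2.77e-10). The call for Fer1HCH did not hold with library size alone, at a log2 fold change of -0.48.

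Mitochondrial transcripts were lower in Pngl Dp/+. All 12 tested genes of the mitochondrial genome fell, against 7.91% lower among all genes tested, with a median log2 fold change of -1.04. That genome took 7.70% and 8.37% of counts in Pngl Dp/+, against 11.7% and 10.7% in Pngl+/-. mt:ND3, a subunit of complex I, had 47.1 and 45.3 CPM in Pngl Dp/+, against 187 and 228 CPM in Pngl+/- (log2 fold change -2.17, SE 0.10, adjusted p = 4.07e-11), and mt:CoI, of cytochrome oxidase, had 7568 and 7765 CPM in Pngl Dp/+, against 14587 and 14224 CPM in Pngl+/- (log2 fold change -0.91, SE 0.04, adjusted p = 7.83e-11). mt:lrRNA, the large mitochondrial ribosomal RNA, had 51730.5 and 56845 CPM in Pngl Dp/+, against 96098 and 84750.2 CPM in Pngl+/-, and its call did not hold with library size alone (log2 fold change -0.42). Of 64 nuclear genes of the respiratory chain tested 15 fell and 0 rose, with a median log2 fold change of -0.49 and a range of -0.99 to -0.18. Most of these calls depended on the scaling, since 1 of the 64 fell with library size alone, where 13 were above 0, and 29 fell with TMM factors on all genes. Of the 10 mitochondrially encoded subunits tested 10 fell, and 8 with library size alone.

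Housekeeping machines were called rarely, against 21.9% of all genes tested. Of 83 cytosolic ribosomal protein genes 0 were called, with a median log2 fold change of -0.23 that turned to 0.09 with library size alone. Of 32 proteasome subunits, the protein-degrading complex whose genes are targets of the transcription factor cnc, 0 were called, and their median of -0.17 turned to 0.15 with library size alone. Unadjusted p was under 0.05 in 72 of the 83 and 25 of the 32, and DESeq2 called 0 in both lists. With a filter of 1 CPM, 87 ribosomal protein genes were tested and 3 were called higher. The summed proteasome level was 3076 and 3070 CPM in Pngl Dp/+, against 3403 and 3482 CPM in Pngl+/-, and 1565 and 1595 CPM in Pngl-/-. Among 7 genes listed with cnc 2 rose, or 28.6%, near the share of all genes. They were ref(2)P, the fly p62, at 356 and 363 CPM in Pngl Dp/+, against 207 and 209 CPM in Pngl+/- (log2 fold change 0.79, SE 0.03, adjusted p = 3.05e-11), and Prosap, a synaptic scaffold gene that is in the list by name. Ubi-p5E, a polyubiquitin gene, rose to 2581 and 2833 CPM in Pngl Dp/+, against 1605 and 1452 CPM in Pngl+/- (log2 fold change 0.82, SE 0.06, adjusted p = 4.29e-09). Of 29 genes of folding and degradation in the endoplasmic reticulum, 1 rose and 2 fell, or 10.3% called. The 2 that fell were both subunits of the Sec61 channel. Sec61beta had 154 and 134 CPM in Pngl Dp/+, against 244 and 273 CPM in Pngl+/- and Sec61alpha 298 and 307 CPM in Pngl Dp/+, against 474 and 471 CPM in Pngl+/-. The log2 fold changes were -0.85 and -0.64, and neither call held with library size alone (-0.53 and -0.32).

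Among hormone and nutrient genes, more were called higher than lower in Pngl Dp/+, as among all genes tested (14% higher, 7.91% lower). Of 11 ecdysone response genes tested, 7 rose and 0 fell, with a median log2 fold change of 0.74. E23, an ABC transporter induced by ecdysone, had 12.6 and 11.5 CPM in Pngl Dp/+, against 2.46 and 2.2 CPM in Pngl+/- (log2 fold change 2.36, SE 0.13, adjusted p = 4.78e-10). Hr4, an ecdysone-induced nuclear receptor, was low, at 1.11 and 0.96 CPM in Pngl Dp/+, against 0.24 and 0.054 CPM in Pngl+/-, and the y w libraries had 7.81 and 7.17 CPM. Hr4 had 25 and 30 counts in Pngl Dp/+ and 5 and 1 counts in Pngl+/-. Eip78C, another nuclear receptor, had 3.89 and 3.86 CPM in Pngl Dp/+, against 0.99 and 1.93 CPM in Pngl+/- (log2 fold change 1.43, SE 0.25, adjusted p = 0.000125). Both receptor genes passed the filter through the y w libraries, in which Eip78C had 8.61 and 6.96 CPM. Of 16 insulin and Foxo genes, 5 rose and 1 fell. InR, the insulin receptor, had 8.88 and 10 CPM in Pngl Dp/+, against 2.93 and 3.59 CPM in Pngl+/- (log2 fold change 1.55, SE 0.13, adjusted p = 7.52e-08), and Ilp3, an insulin-like peptide also made in gut muscle, had 12.6 and 11.8 CPM in Pngl Dp/+, against 4.21 and 4.61 CPM in Pngl+/- (log2 fold change 1.46, SE 0.10, adjusted p = 7.79e-09). tobi, a glucosidase gene that insulin and glucagon-like signals control, was lower by a log2 fold change of -1.80, with 0.27 and 0.22 CPM in Pngl Dp/+, against 0.95 and 0.75 CPM in Pngl+/-. These levels rest on 6 and 7 counts in Pngl Dp/+ and 20 and 14 counts in Pngl+/-. tobi passed the filter through the libraries labelled Pngl-/-, at 8.17 and 9.34 CPM. Of 6 JAK-STAT and Turandot genes tested, 2 rose and 1 fell, and TotA, a stress peptide, had 326 and 359 CPM in Pngl Dp/+, against 65 and 60 CPM in Pngl+/- (log2 fold change 2.46, SE 0.05, adjusted p = 1.31e-14). Of 12 JNK pathway genes 0 were called by edgeR's quasi-likelihood test and 0 by DESeq2, with 7 at an unadjusted p under 0.05, against 21.9% called among all genes tested. With library size alone 3 of the 12 were called higher. Of 24 autophagy and cell death genes 4 rose (16.7%, near the 14% of all genes tested) and 0 fell. With library size alone 11 of them rose, and with TMM factors on all genes 2 rose. Library size alone also gave 10 insulin and Foxo genes higher and 1 lower.

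Detoxification genes held calls in both directions, as did all genes tested (14% higher, 7.91% lower). Of 59 cytochrome P450 genes tested 16 rose and 6 fell, and with library size alone 29 rose and 2 fell. Cyp4e3 had 37.4 and 39.2 CPM in Pngl Dp/+, against 9.31 and 9.23 CPM in Pngl+/- (log2 fold change 2.05, SE 0.07, adjusted p = 1.28e-12), Cyp6d5 144 and 152 CPM in Pngl Dp/+, against 45.8 and 43.8 CPM in Pngl+/-, and Cyp4g1, which makes cuticular hydrocarbons, 15.1 and 15.3 CPM in Pngl Dp/+, against 4.63 and 4.94 CPM in Pngl+/-. Of 31 glutathione S-transferases 3 rose and 4 fell, or 22.6% called, near the 21.9% of all genes tested. With library size alone 6 rose and 1 fell. GstD2 had 90 and 97.1 CPM in Pngl Dp/+, against 22.8 and 22 CPM in Pngl+/- (log2 fold change 2.06, SE 0.05, adjusted p = 3.05e-14), while GstD3 had 13.2 and 13.7 CPM in Pngl Dp/+, against 54.8 and 54.6 CPM in Pngl+/- (log2 fold change -2.02, SE 0.06, adjusted p = 6.75e-13). Of 26 UDP-glycosyltransferases 7 rose and 4 fell (12 and 2 with library size alone), with Ugt37A2 at 105 and 111 CPM in Pngl Dp/+, against 17.1 and 18.2 CPM in Pngl+/- (log2 fold change 2.62, SE 0.05, adjusted p = 9.39e-15). Of 19 vacuolar ATPase genes 2 fell and 0 rose, whereas 0 fell and 2 rose with library size alone. Of 13 glycolysis genes 2 rose and 1 fell, or 23.1% called, also near the 21.9% of all genes. Of 71 mitochondrial ribosomal protein genes 1 rose and 1 fell, or 2.82%.

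**Figure D5:**
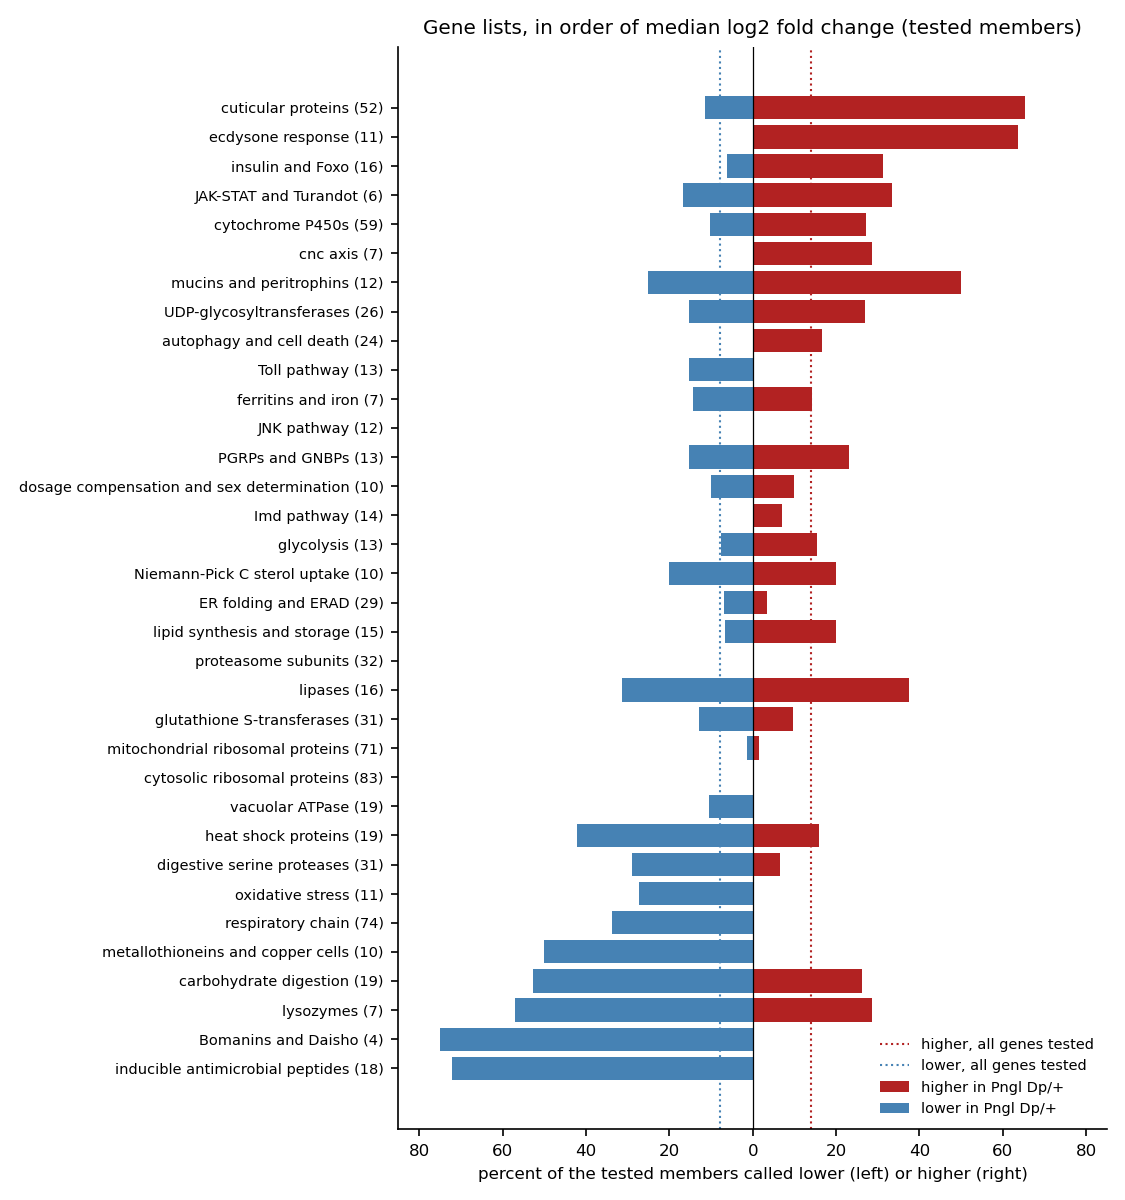
Percent of tested members called higher (red, right) or lower (blue, left) in Pngl Dp/+ for 34 gene lists, in order of the median log2 fold change, with the number tested in brackets. Dotted lines mark the share of all genes tested that was higher (14%) and lower (7.91%).

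The balancer is a second chromosome, so calls were counted by chromosome arm. The share called was 20.5% on the second chromosome (2L and 2R), 23.8% on 3L and 3R and 17.7% on X, against 21.9% of all genes tested. Of 65 tested genes on chromosome 4, 27 rose and 1 fell, or 43.1%, with a median log2 fold change of 0.45. The muscle gene bt and the fat body gene apolpp are among them. Of 10 dosage compensation and sex determination genes, 1 rose and 1 fell. lncRNA:roX2, a non-coding RNA of the male X chromosome, had 2.61 and 2.8 CPM in Pngl Dp/+, against 5.15 and 7.3 CPM in Pngl+/- (log2 fold change -1.18, SE 0.18, adjusted p = 3.99e-05). lncRNA:roX1, named after its values were seen, differed by 0.05 on the log2 scale. Testis markers summed to 32.5 and 31.6 CPM in Pngl Dp/+, against 10.3 and 11.0 CPM in Pngl+/-. Of 16 such genes 2 were tested, S-Lap1 and S-Lap7, and both rose. S-Lap7, and in part S-Lap1, passed the filter through libraries outside the comparison. The others were under the filter, most of them higher in Pngl Dp/+, but not aly (3 and 6 counts, against 3 and 3 in Pngl+/-). Ovary markers were near 0 in all 4 libraries, osk at 0. The pools held males and females, and the share of each sex was not given in the sources used here.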

How the data were processed

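RNA of pooled larval midguts was sequenced as stranded paired-end poly(A) libraries, 2 per genotype. Per the labels and the study's methods the authors used cutadapt for trimming and STAR 2.5.3 for alignment to dm6 (version as in the submitters' processing notes), and totalled reads over collapsed exons of FlyBase genes; the use of strand and of reads with several matches is not given in the sources used here. The deposited values are whole-number counts per gene, not normalized. Of 17713 genes, 17582 were matched to a symbol and a dm6 position in the Ensembl annotation.

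The filter kept the 7665 genes that reached 5 CPM in 2 or more libraries. All 8 libraries were fitted with edgeR 4.0.16 (quasi-likelihood test, R 4.3.3), with 1 mean per genotype and TMM factors, as Pngl Dp/+ over Pngl+/-. Genes were called where levels differed 1.5-fold or more and the p adjusted by Benjamini and Hochberg did not exceed 0.05. The fit was tested on simulated data. CPM are relative to library totals after TMM scaling. Intervals and floors (3 counts per library) cover counting error only.

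Gene lists, markers and the genes to be named were chosen with earlier results of these data known. Named were the 10 called genes with the largest changes in each direction (mean of at least 5 CPM), the 5 called genes in each direction with the highest level, and up to 3 called members of each list with the largest changes, beside Pngl, its neighbours and strain markers; other genes named are marker genes or are said to be chosen after their values were seen. Alternatives were other scalings, filters and tests (DESeq2 1.42.0 among them), fewer libraries, a replicate block and leaving out each library.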

Additional observations from a re-analysis of the deposited data

How the results depend on the processing

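Against 1677 genes called (1071 higher, 606 lower), 2683 were called with no filter on low counts (1655 higher, 1028 lower, of 15307 tested) and 1055 in a test against a fold change of 1.5 (639 higher, 416 lower). With library size alone 2201 were higher and 284 lower. The share of tested genes of the second chromosome that was called was 20.5%, and 30.9% with library size alone and 12.4% in the test against a fold change of 1.5. Leaving out each library in turn gave 1673 to 1741 calls, 1059 to 1094 higher and 614 to 647 lower, and a second chromosome share of 20.1% to 21.3%. This leaves 1 library in a genotype, which is assumed to vary like the others. The log2 fold change of Pngl was between -1.13 and -0.73 over all alternatives. The median log2 fold change of 12 of the 36 gene lists changed sign with library size alone, those of ribosomal, proteasome, lipase, glutathione S-transferase and Imd genes among them, and that of 1 list (dosage compensation) with TMM factors on all genes; none did with RLE or upper-quartile factors or DESeq2. The labels do not say that replicate numbers pair libraries. Deviations of same-numbered libraries of these genotypes correlated at 0.38, and a replicate block gave 1673 calls (1064 higher, 609 lower). With 2 libraries per genotype, changes of genes with few counts are the least certain.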
